A study of Rattus norvegicus with 6 samples.

Results

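The endothelin and nitric oxide genes of rat lung were taken as 10 genes by name: Edn1, Ece1, Ednra, Ednrb, Nos1, Nos2, Nos3, Prkg1, Pde5a and Arg2. A transcript row of the deposited table of linear RNAs was a member when its gene name equalled 1 of these. Of the 10 genes, 9 had rows, 53 in all, out of 70376 rows and 21655 gene names. No row was named Prkg1, the gene of the kinase that cyclic GMP switches on, and it was not analysed here. Each row holds FPKM, a level scaled to transcript length and library size, and a gene's level is the sum over its rows. All animals were Sprague-Dawley rats, 7 weeks old at the start. The 3 PF model rats received 1 intratracheal dose of bleomycin at 7 mg/kg, a drug that scars the lung, and the 3 control rats received saline of the same volume. Lung was taken on day 28, and 1 library depleted of ribosomal RNA was made for each rat. Each test thus sets the difference between groups against variation among rats, 3 a group. In the limma fits that variation is estimated partly from the other genes or transcripts. The numbers 1 to 3 name the samples of a group in the labels.

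Endothelin-1 is a peptide that makes vessels constrict. It is cut from a precursor, the product of Edn1, by the membrane protease that Ece1 encodes, and it acts on the receptors encoded by Ednra and Ednrb. Nitric oxide works the other way: nitric oxide synthases make it from arginine, it switches on soluble guanylate cyclase, and the cyclic GMP that forms relaxes smooth muscle through the kinase of Prkg1 until phosphodiesterases such as Pde5a break it down. Arginases, Arg2 among them, use the same arginine. Both systems set vascular tone in the lung, and drugs that block endothelin receptors or PDE5 are used in pulmonary hypertension.

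The members differed widely in level. Ece1 had the highest mean level over the 6 samples, 88.0 FPKM, and every sample of Ece1 lay above every sample of Ednra, which had a mean of 40.1. Ednra, Ednrb (33.4) and Pde5a (30.5) were neighbours whose ranges overlapped: Ednra was above Ednrb in 5 of 6 samples, and Ednrb above Pde5a in 3 of 6. Edn1 (15.7), Nos3 (2.51) and Arg2 (0.894) followed, each separated in all 6 samples from the gene before it. Arg2 and Nos2 (0.672) overlapped, and Nos1 (0.0142) was lowest. FPKM is a level per length, so the genes can be set side by side on it. The order of the middle genes, and the separation of Edn1 from its neighbours, depended on which rows were summed. With rows on the gene's own strand only, Pde5a (30.5) came before Ednra (28.6) and Ednrb (26.7), and these ranges overlapped as well. With Ensembl transcripts alone, Edn1 had a mean of 4.30 FPKM and ran from 1.92 to 6.60. That range overlapped those of Ednrb (3.96 to 7.61) and of Nos3 (2.01 to 3.11).

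**Figure D1:**
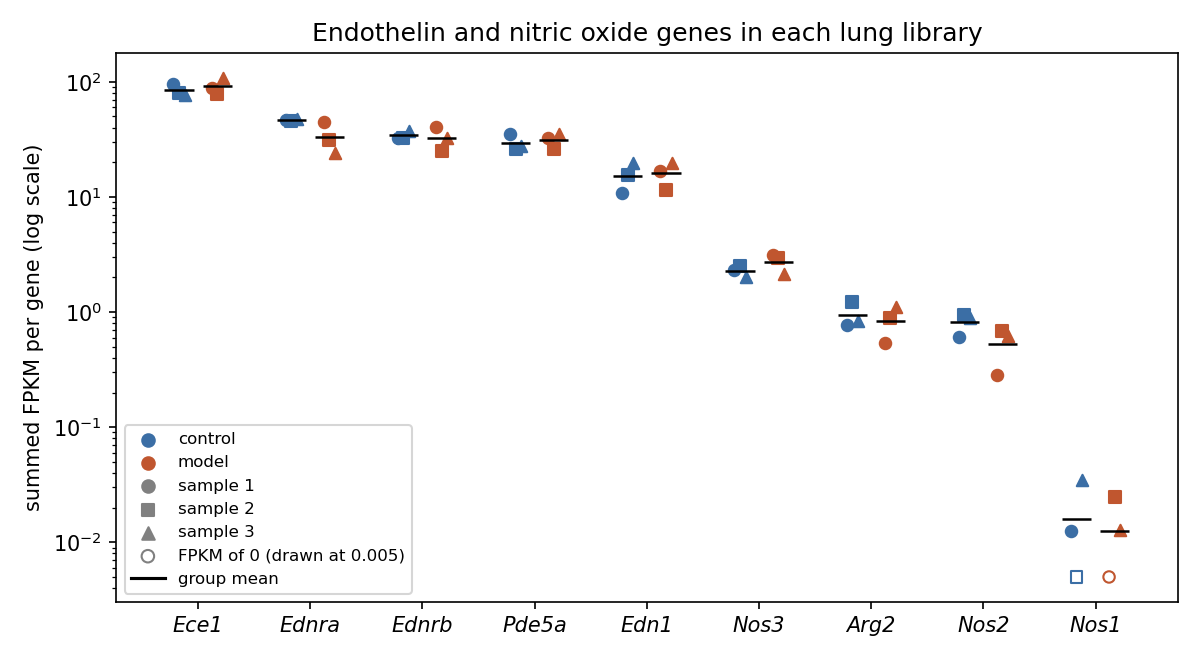
Summed FPKM (log axis) of the 9 members with rows, one point per library, blue for control and orange for PF model samples, with bars at the group means. The Ednra points of the 3 model samples lie below the 3 controls, while the groups overlap for each of the other 8 genes.

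Between PF model and control, 4 of the 9 genes had a higher and 5 a lower mean on the log2(FPKM + 1) scale, and the median log2 fold change was -0.00, against -0.01 over all 19645 gene names tested with limma. The median of the members is the value of Nos1, 1 of the 5, which was at the limit of detection. No member was called at an unadjusted p of at most 0.05 with a 2-fold ratio of mean FPKM, a call that 1.52% of all gene names received. Ednra alone passed the unadjusted p, 1 of 9 genes against 4.91% (965) of all gene names, split into 420 with higher and 545 with lower levels in the PF model samples. In its direction the share was 2.77%. Scaled to TPM, the split of gene names past p was 703 higher and 252 lower, and Ednra was no longer past it. By adjusted p no member passed, against 0.0102% (2) of all gene names. The groups did not overlap for 1 of 9 members, again Ednra, against 10.7% of all gene names (5.87% lower in the model). The counts of members past a threshold are thus near those of the whole table.

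**Figure D2:**
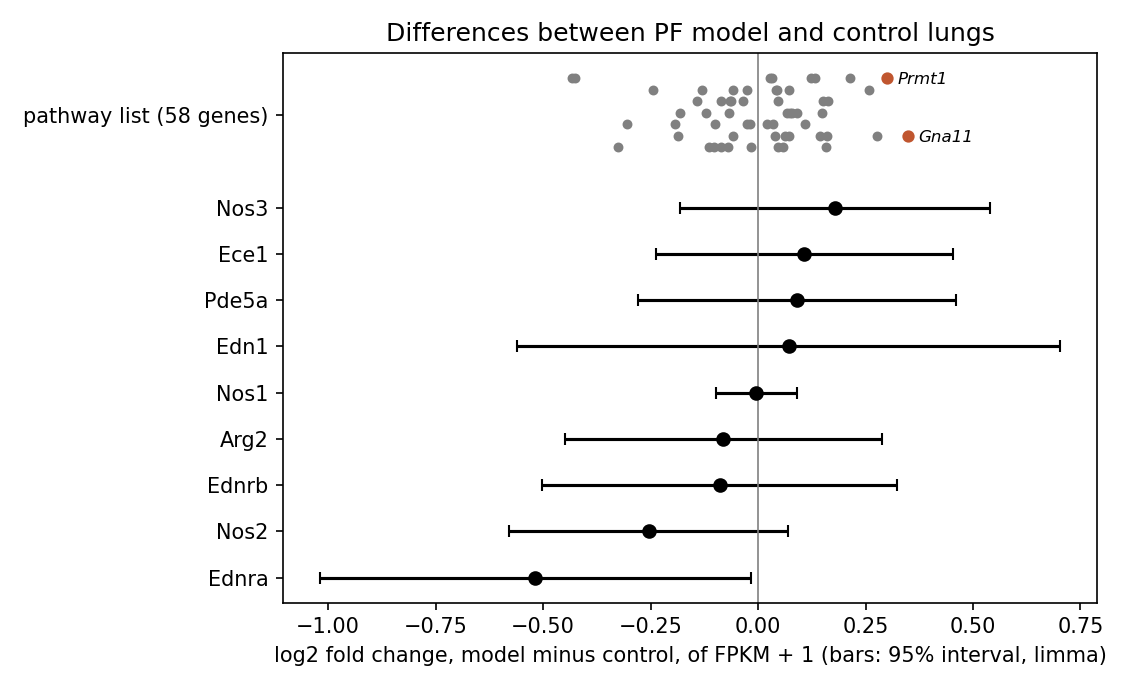
Log2 fold change of FPKM + 1, model minus control, with the 95% interval of the limma fit for the 9 members, and above them 1 point for each of the 58 tested genes of the pathway list. The interval of Ednra, from -1.02 to -0.02, is the only 1 of the 9 that leaves out 0, and Gna11 and Prmt1 are the pathway genes past an unadjusted p of 0.05.

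Edn1 (chr17:22136691-22143324, minus strand, in the coordinates of the files, whose genome build is not given in the sources used here) encodes the precursor of the peptide. Its summed FPKM was 10.8, 15.4 and 19.8 in control samples 1, 2 and 3, and 16.9, 11.5 and 19.8 in model samples 1, 2 and 3. The lowest value was a control and the 2 highest were control 3 and model 3, so the groups overlapped over nearly their whole range. The means were 15.3 ± 4.47 and 16.1 ± 4.24 (SD, n = 3 each), and the log2 fold change was 0.07 ± 0.26 (SE, limma adjusted p = 0.991, exact permutation p = 0.7). The 95% interval ran from -0.56 to 0.70, so these data do not tell changes within these bounds apart. About 1098 to 2168 reads lay behind a sample's value, estimated from coverage. Of its 6 rows, the Ensembl transcript ENSRNOT00000019361 with 5 exons held between 16.8% and 36.3% of the FPKM and 5 assembled rows on the same strand the rest. The Ensembl transcript stood at 2.06, 5.14 and 3.95 FPKM in the controls and at 6.15, 1.92 and 6.60 in the model samples, and MSTRG.15078.3, the assembled row with the highest mean, at 2.54, 3.25 and 5.51 against 2.37, 2.42 and 5.62. Neither row separated the groups (exact permutation p = 0.6 for both).

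The 250 bases before the RefSeq gene start of the ligand and of its 2 receptors are printed here (RefSeq, rat build GRCr8, a build not to be mixed with the file coordinates), because Ednra had the smallest p of the members and the other 2 are its ligand and its fellow receptor. The table of promoters held 8 of the 10 members, all but Nos2 and Arg2. Capitals mark matches on either strand to 7 motifs. For GATA factors these were AGATAA and a second form, TGATAA. The AP-1 motif was TGANTCA, and the hypoxia element was ACGTG. The letters CAGAC stood for Smad proteins and CACCC for Krueppel-like factors. The TATA box was searched as TATAAA. No matches overlap in these windows.
Edn1 promoter, chr17:22666688-22666937, minus strand: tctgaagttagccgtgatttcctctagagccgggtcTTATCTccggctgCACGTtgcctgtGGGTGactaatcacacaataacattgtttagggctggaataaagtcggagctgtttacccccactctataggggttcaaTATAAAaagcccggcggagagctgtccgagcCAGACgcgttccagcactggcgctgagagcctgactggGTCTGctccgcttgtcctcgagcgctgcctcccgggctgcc
Ednra promoter, chr19:47137674-47137923, plus strand: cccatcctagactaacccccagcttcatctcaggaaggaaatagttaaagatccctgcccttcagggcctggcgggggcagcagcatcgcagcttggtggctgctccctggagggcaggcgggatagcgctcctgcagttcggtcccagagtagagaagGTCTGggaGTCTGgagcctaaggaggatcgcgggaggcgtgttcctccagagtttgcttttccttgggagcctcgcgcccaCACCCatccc
Ednrb promoter, chr15:87086766-87087015, minus strand: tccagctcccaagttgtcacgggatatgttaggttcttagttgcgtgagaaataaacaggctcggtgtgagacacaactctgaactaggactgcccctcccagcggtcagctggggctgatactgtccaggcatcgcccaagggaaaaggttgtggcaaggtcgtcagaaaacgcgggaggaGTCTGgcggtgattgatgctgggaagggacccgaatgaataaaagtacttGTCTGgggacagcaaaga
The Edn1 window held 6 matches. The TATA box began 110 bases before the start. The first GATA motif lay on the other strand, 214 bases before it. The hypoxia element lay 201 and the Krueppel-like factor motif 189 bases before it, both on the other strand. The Smad motif matched at 79 and, on the other strand, at 41. The Ednra window held the Smad motif on the other strand at 91 and 83 bases before the start and CACCC at 10, and the Ednrb window held the Smad motif on the other strand at 68 and 18. Of the 33469 promoters in the table, 12.9% held the TATA box, 10.3% the first GATA motif, 16.6% the hypoxia element, 49.2% the Krueppel-like factor motif and 42.9% the Smad motif. The receptor matches are thus to letters found in a large share of promoters. The second GATA motif (7.97%) and the AP-1 motif (6.34%) had no match in the 3 windows.

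Ece1 (chr5:156215417-156325390, plus strand), the endothelin converting enzyme, stood at 95.8, 80.7 and 77.1 FPKM in the controls and at 88.2, 78.3 and 108 in the model samples. Model 3 was highest and control 3 lowest, and the other samples were mixed. The log2 fold change was 0.11 ± 0.14 (SE, 95% interval -0.24 to 0.45, limma adjusted p = 0.950, exact permutation p = 0.6), from means of 84.5 ± 9.90 and 91.6 ± 15.2 FPKM (SD, n = 3). Of its 18 rows, the Ensembl transcript ENSRNOT00000077742, with 19 exons, held 55.0, 44.6 and 21.6 FPKM in the controls and 40.3, 37.1 and 49.2 in the model samples. In control 3, where it was lowest, the assembled same-strand rows together held 33.1 FPKM, against 10.8 and 14.4 in the other controls, so the sum of Ece1 varied less in proportion than either kind of row. Another 6 rows under the name Ece1 lay on the opposite strand and held between 26.2% and 30.8% of its FPKM. The strongest of these, MSTRG.29340.1 (chr5:156317881-156325390, minus strand, 2 exons, overlapping exons of Ece1), stood at 15.9, 12.4 and 13.6 against 16.6, 11.6 and 17.2 FPKM. The labels name a stranded kit for these libraries, but whether the reads were counted by strand is not given in the sources used here, so reads of these rows and of Ece1 cannot be told apart with certainty. On its own strand, Ece1 stood at 66.2, 59.5 and 55.2 FPKM in the controls and 61.3, 55.9 and 75.4 in the model samples, with the groups overlapping as before.

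**Figure D3:**
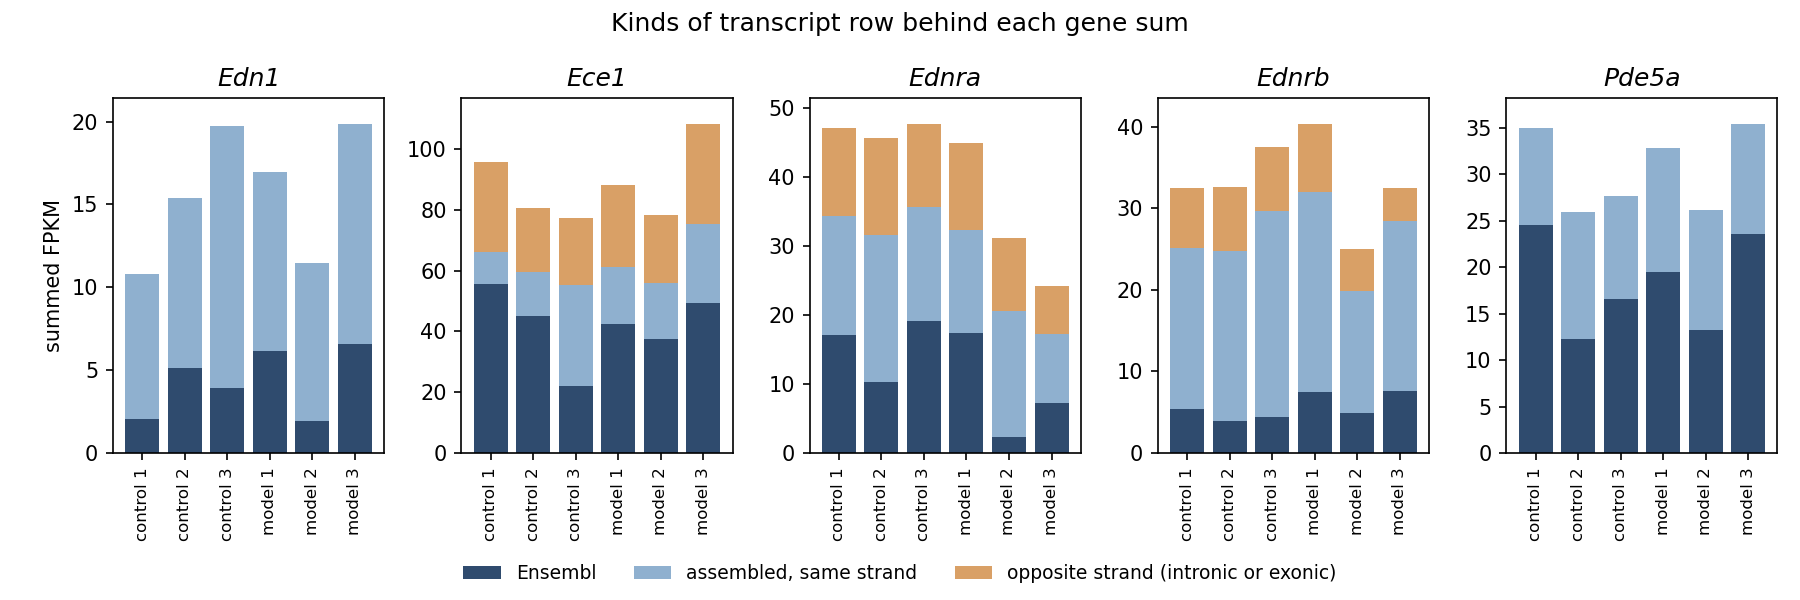
Summed FPKM of 5 members in each library, stacked by kind of row: Ensembl transcripts, assembled transcripts that share a splice junction with the gene, and rows on the opposite strand. Ece1, Ednra and Ednrb carry opposite-strand rows, and in model 2 the Ensembl rows of Ednra shrink to 2.26 FPKM while the assembled rows hold 18.4.

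Ednra (chr19:33928356-33999588, plus strand) encodes the ETA receptor, through which endothelin-1 constricts smooth muscle, and had the smallest p of the members. Its FPKM was 47.1, 45.7 and 47.6 in control samples 1, 2 and 3, and 44.9, 31.2 and 24.1 in model samples 1, 2 and 3. All 3 model samples lay below all 3 controls, but model 1 only narrowly, and the controls were close together while the model samples were spread. The means were 46.8 ± 0.998 and 33.4 ± 10.6 (SD, n = 3), a log2 fold change of -0.52 ± 0.21 (SE, 95% interval -1.02 to -0.02, limma p = 0.0445, adjusted p = 0.933, exact two-sided permutation p = 0.1, the smallest that 3 against 3 allow). The log2 ratio of mean FPKM was -0.49, short of the 2-fold threshold. The p was above 0.05 when any of the 3 controls, model 2 or model 3 was left out (limma p between 0.0841 and 0.102, with a log2 fold change of -0.31 without model 3), and was 0.00132 without model 1. It was also above 0.05 with TPM (0.0698), with Ensembl transcripts alone (0.160) and without the trend in limma (0.0534).

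Of the 53 member rows 49 were tested, 25 with higher and 24 with lower means in the model. An unadjusted p of 0.05 was passed by 2 of the 49, against 4.53% of all 64867 transcripts tested (2.65% lower in the model). With the 2-fold threshold 1 of the 49 was called, against 2.98%, and by adjusted p 0, against 0.0277%. The groups did not overlap for 6 of the 49, against 10.4%. Both rows past p belonged to Ednra, of whose 13 tested rows 11 were lower in the model, and 4 without overlap, all lower, against 6.29% of all transcripts in that direction. These rows share exons and reads, so they are not independent of each other or of the sum. MSTRG.17622.1, a 9-exon row as long as the gene, stood at 1.05, 1.55 and 1.21 FPKM against 0.770, 0.560 and 0.491 (log2 fold change -0.50, log2 ratio of means -1.06, limma p = 0.0192, adjusted p = 0.945, exact permutation p = 0.1), and was the row called. MSTRG.17622.16 has 3 exons inside the gene with 7824 bases, more than the 4595 of the main Ensembl transcript, so part of it lies outside that transcript's exons. MSTRG.17622.16 stood at 3.43, 3.38 and 4.39 against 2.69, 2.95 and 2.10 (log2 fold change -0.41, limma p = 0.0412, adjusted p = 0.945, exact permutation p = 0.1). Both rows past p are minor, and neither passed in every set of 5 samples: MSTRG.17622.1 lost the p without control 2, model 2 or model 3 (0.0503 to 0.0580), and MSTRG.17622.16 without any sample other than model 2 (0.0585 to 0.121). The main Ensembl transcript ENSRNOT00000058162, with 8 exons, stood at 16.4, 9.66 and 18.6 FPKM in the controls and at 17.3, 2.16 and 5.73 in the model samples. Model 1 was thus at the level of the controls while models 2 and 3 were below them all, and the row did not pass (log2 fold change -1.07 ± 0.66 SE, limma p = 0.156, exact permutation p = 0.3). Without model 1 its log2 fold change was -1.74 (limma p of 0.0113), and without model 2 it was -0.47 (0.407).

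Opposite-strand rows took part in the separation of Ednra. A pair of rows inside its introns, on the minus strand, held between 25.2% and 33.8% of its FPKM, and the stronger, MSTRG.17624.1 (chr19:33945790-33955197, 1 exon), stood at 6.53, 7.07 and 6.60 FPKM in the controls and at 6.13, 5.93 and 3.22 in the model samples (exact permutation p = 0.1, limma p = 0.137). On its own strand alone, Ednra stood at 34.3, 31.6 and 35.7 against 32.4, 20.6 and 17.2 FPKM, and the groups overlapped, since model 1 lay above control 2. The own-strand sum, a choice made after the rows had been seen, had a log2 fold change of -0.56 ± 0.22 (SE, limma p = 0.0388) and an exact permutation p of 0.2.

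Model 3, the sample with the least Ednra, also stood apart in other genes. The summed FPKM of 6 smooth muscle and myofibroblast markers ran from 100.1 to 132.6 in the controls and from 96.2 to 171 in the model samples. Model 3 was the highest of these, with Acta2, smooth muscle actin, at 88.5 FPKM. Model 2, which also had low Ednra, was the lowest, with Acta2 at 50.1 FPKM. None of the 6 markers passed an unadjusted p of 0.05. Of the 7 fibroblast and matrix markers, 5 were higher and 2 lower in the model, and 1 passed (Col3a1, a fibrillar collagen). Their sum ran from 402.3 to 469.7 in the controls and from 479.4 to 567.5 in the model samples. Col3a1 was the largest part of that sum, at 174, 178 and 154 against 189, 204 and 233 FPKM. The groups overlapped for every other marker of this list, and did not overlap for 10.7% of all gene names. Myh6, the cardiac myosin heavy chain, stood at 5.11 FPKM in model 3, 0.0339 in model 2 and 0 in the other 4 libraries. In the 4 cardiac markers as a list, sums ran from 5.36 to 10.0 and from 5.51 to 21.0 FPKM, 3 were tested, and Nppa passed p with levels of at most 0.167 FPKM. Over the whole marker list 2 of 40 tested genes passed, Col3a1 and Nppa, and none of the 6 alveolar, 2 airway, 2 red cell and 2 neutrophil markers did. All 6 alveolar markers were higher in the model, with a median log2 fold change of 0.18, though the groups overlapped for each. In the whole list 25 were higher and 15 lower. The part of these differences in the Ednra values was not tested, and in lung pieces fewer cells of a type and less RNA per cell cannot be told apart.

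Ednrb (chr15:88004423-88036354, minus strand) encodes the ETB receptor, which releases nitric oxide from endothelium and clears endothelin-1. Its FPKM was 32.5, 32.6 and 37.5 in the controls and 40.3, 25.0 and 32.5 in the model samples. The model samples lay on both sides of the controls. The log2 fold change was -0.09 ± 0.17 (SE, 95% interval -0.50 to 0.32, limma adjusted p = 0.968, exact permutation p = 0.9), from means of 34.2 ± 2.88 and 32.6 ± 7.67 FPKM (SD, n = 3). Its direction depended on the rows counted. The Ensembl transcript ENSRNOT00000014747, with 8 exons, stood at 5.44, 3.96 and 4.41 FPKM in the controls and at 7.49, 4.87 and 7.61 in the model samples (log2 fold change 0.44 ± 0.20 SE, limma p = 0.0688, exact permutation p = 0.2), opposite in sign to the sum. Models 1 and 3 lay above all controls on this row, and model 2 within their range. The 7-exon assembled row MSTRG.13430.2, the largest share of the gene, stood at 18.6, 16.8 and 17.2 against 23.4, 14.6 and 16.4 FPKM, with a log2 fold change of 0.02. The 2 intronic rows on the opposite strand held between 12.4% and 24.1% of the sum.

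The receptors can be compared inside each library, where the library total drops out. The ratio of Ednra to Ednrb FPKM was 1.45, 1.40 and 1.27 in the controls and 1.11, 1.25 and 0.742 in the model samples. Each model sample lay below each control, model 2 by a narrow margin, and only in model 3 was Ednrb the higher receptor. The means were 1.37 ± 0.0930 and 1.04 ± 0.262 (SD, n = 3), a difference of -0.44 in mean log2 ratio (exact two-sided permutation p = 0.1, the smallest the design allows). The difference was -0.22 without model 3, and with sums weighted by transcript length it was -0.36 and the permutation p was 0.3. The ratio is made from the same Ednra values as above, so it is not independent of the Ednra result.

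**Figure D4:**
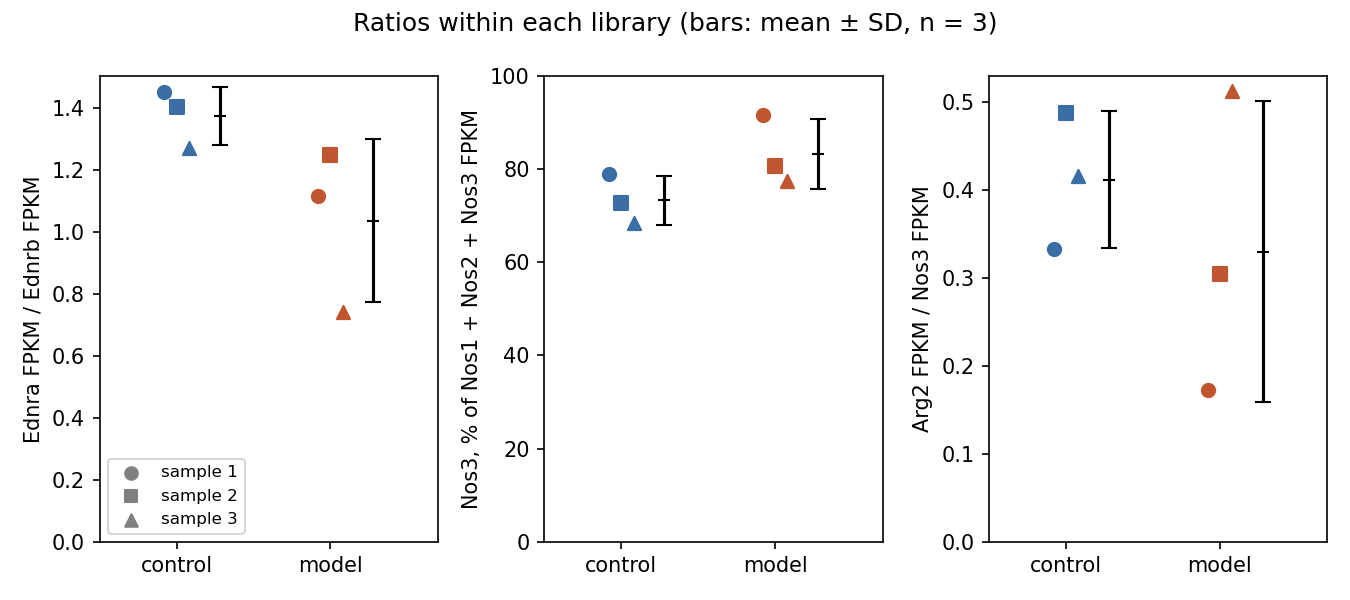
Ratio of Ednra to Ednrb, share of Nos3 in the FPKM of the 3 nitric oxide synthases, and ratio of Arg2 to Nos3, one point per library with the mean ± SD of each group of 3 beside them. Only the receptor ratio separates the groups, with the model samples between 0.742 and 1.25 and the controls between 1.27 and 1.45.

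Summed over all rows, the nitric oxide synthases were low in these libraries beside the endothelin genes. Nos3 (chr4:7320668-7342410, minus strand), the synthase of endothelium, was the main one, with a single Ensembl row of 26 exons. It stood at 2.32, 2.51 and 2.01 FPKM in the controls and at 3.11, 2.93 and 2.16 in the model samples. Models 1 and 2 lay above all controls and model 3 within them. The log2 fold change was 0.18 ± 0.15 (SE, 95% interval -0.18 to 0.54, limma adjusted p = 0.933, exact permutation p = 0.3), on an estimated 528 to 811 reads a sample. The 8 endothelial markers in the table, Cdh5 and Kdr among them, summed to between 559 and 756 FPKM in the controls and between 608 and 693 in the model samples, and none passed an unadjusted p of 0.05. Plvap and Vwf were the largest parts of that sum. Vwf varied among the controls, at 179, 87.8 and 77.2 FPKM, and stood at 152, 150 and 117 in the model samples. Pecam1 and Cldn5 of the endothelial list had no row under their names.

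Nos2 (chr10:66189786-66313190, plus strand) is the inducible synthase of macrophages and other activated cells. It stood at 0.610, 0.945 and 0.893 FPKM in the controls and at 0.284, 0.682 and 0.617 in the model samples. Model 1 was the lowest, while models 2 and 3 lay just above control 1. The log2 fold change was -0.25 ± 0.14 (SE, 95% interval -0.58 to 0.07, limma adjusted p = 0.933, exact permutation p = 0.3), which on this scale understates the ratio of so low a gene: the means were 0.816 ± 0.180 and 0.528 ± 0.213 FPKM (SD, n = 3). Without model 1 the log2 fold change was -0.13. Only an estimated 47.0 to 148 reads lay behind a value, split over 2 Ensembl rows of 26 and 25 exons, of which ENSRNOT00000073138 stood at 0.365, 0.518 and 0.461 against 0.201, 0.343 and 0.396. The 4 macrophage markers in the table summed to between 22.0 and 43.1 FPKM in the controls and between 25.1 and 45.5 in the model samples, with none past p. Most of the width of these ranges lay in Cd68, at 21.0, 20.7 and 1.30 FPKM in the controls and 22.2, 1.21 and 22.8 in the model samples. The sum is thus a poor measure of macrophage content.

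Nos1 (chr12:44213943-44520341, minus strand), the synthase of neurons, was at the limit of detection. Its 30-exon row was listed at 0.0126, 0 and 0.0349 FPKM in the controls and at 0, 0.0249 and 0.0127 in the model samples, or at most an estimated 11.6 reads, so its fold change is not interpreted. Of the FPKM of all 3 synthases, Nos3 made up 78.9%, 72.7% and 68.4% in the controls and 91.6%, 80.6% and 77.4% in the model samples. Control 1 lay above model 3, so the groups overlapped, and the difference in means was 9.87 percentage points (73.3 ± 5.26 and 83.2 ± 7.46, SD, n = 3, exact two-sided permutation p = 0.2).

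Pde5a (chr2:226899246-227046301, plus strand), the phosphodiesterase that sildenafil blocks, stood at 35.0, 25.9 and 27.6 FPKM in the controls and at 32.8, 26.2 and 35.4 in the model samples. The groups covered nearly the same range. The log2 fold change was 0.09 ± 0.15 (SE, 95% interval -0.28 to 0.46, limma adjusted p = 0.965, exact permutation p = 0.7), from means of 29.5 ± 4.84 and 31.5 ± 4.74 FPKM (SD, n = 3). Both named rows have 21 exons: the Ensembl transcript ENSRNOT00000019638 stood at 24.6, 12.2 and 16.6 against 19.5, 13.2 and 23.6 FPKM, and the longer assembled row MSTRG.20745.1 at 4.22, 9.38 and 4.86 against 6.44, 7.15 and 5.50. In the second sample of each group the Ensembl row was lowest and the assembled row highest.

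Pde5a was also the member with most circular RNA. Reads across a back-splice, where the end of an exon is joined to the start of the same or an earlier one, were the measure of circles, of which 8 from 3 members were listed: 5 from Pde5a, 2 from Ece1 and 1 from Ednra. The 1 from Ednra is listed as a circular intronic RNA, which is made from an intron instead. The 1-exon circle circRNA981 (chr2:226925637-226926225) had 60 reads, ranking 13 among all 5216 circles of the table, with 14, 8 and 9 reads in the controls and 5, 13 and 11 in the model samples. Control 1 had most reads and model 1 fewest, while as a share of each library's back-splice reads model 2 was highest and model 1 lowest, and the groups overlapped on both scales (edgeR log2 fold change -0.01, adjusted p = 0.9997), where 5.31% of the 226 circles tested passed an unadjusted p of 0.05. A longer Pde5a circle that begins at the same base and takes in 2 exons, circRNA2644, had 0, 0 and 1 reads against 3, 0 and 1. The other 6 had 1 or 2 reads each, too few to compare, and a library held between 2037 and 2964 back-splice reads in all.

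Arg2 (chr6:102311116-102338520, plus strand), the mitochondrial arginase, stood at 0.772, 1.22 and 0.834 FPKM in the controls and at 0.536, 0.893 and 1.10 in the model samples. The highest sample was a control and the lowest a model sample, with the others mixed. The log2 fold change was -0.08 ± 0.15 (SE, 95% interval -0.45 to 0.29, limma adjusted p = 0.967, exact permutation p = 0.7), on its single Ensembl row, ENSRNOT00000083433, with an estimated 39.7 to 79.7 reads. Its ratio to Nos3, which draws on the same substrate, was 0.332, 0.487 and 0.415 in the controls and 0.173, 0.305 and 0.512 in the model samples. Model samples were both the lowest and the highest (difference in mean log2 ratio -0.44, exact two-sided permutation p = 0.5).

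Over the 6 samples, some pairs of members varied alike. Of the 36 pairs among the 9 genes, Pearson's r of log2(FPKM + 1) was highest for Ece1 with Pde5a (0.905) and Nos2 with Arg2 (0.763), and lowest for Nos2 with Pde5a (-0.629) and Nos2 with Nos3 (-0.600). These values are a description over 6 libraries that share group, depth and scaling.

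The rest of the pathway was followed through a list of 62 genes, of which 58 had rows and were tested, all but Edn2, Nos1ap, Agxt2 and Adh5. Of the 58, 31 were higher and 27 lower in the model, with a median log2 fold change of 0.03 against -0.01 over all gene names. An unadjusted p of 0.05 was passed by 2, both higher, against 2.14% of all gene names in that direction, and none passed by adjusted p. The groups did not overlap for 6 of the 58, against 10.7% of all gene names.

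Among the genes downstream of the endothelin receptors, 2 of 9 were higher and 7 lower. Gna11, a G protein alpha subunit that couples these receptors to phospholipase C, was 1 of the higher ones and passed p. It stood at 8.26, 8.61 and 6.57 FPKM in the controls and at 9.55, 9.77 and 11.2 in the model samples, all above the controls (log2 fold change 0.35 ± 0.13 SE, limma p = 0.0301, adjusted p = 0.933, exact permutation p = 0.1). The p lay above 0.05 without control 3 (0.0797), model 2 (0.0517) or model 3 (0.0869). Arhgef12, an activator of RhoA, stood at 114, 108 and 111 against 108, 92.4 and 92.6 FPKM (log2 fold change -0.19, limma p = 0.0771, exact permutation p = 0.2), with models 2 and 3 below every control.

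The supply side of nitric oxide held the other gene past p. Of 11 tested genes of arginine supply and use, 6 were higher and 5 lower. Prmt1, a methyltransferase of protein arginines, whose products on breakdown release an inhibitor of the synthases, stood at 8.27, 8.21 and 7.13 FPKM in the controls and at 9.65, 8.95 and 11.2 in the model samples. The groups did not overlap (log2 fold change 0.30 ± 0.11 SE, limma p = 0.0363, adjusted p = 0.933, exact permutation p = 0.1), and the p lay above 0.05 when any sample but model 2 was left out (0.0545 to 0.108) and with Ensembl transcripts only (0.378). Of the 6 genes of tetrahydrobiopterin, the cofactor of the synthases, 5 were higher and 1 lower. Qdpr, which recycles the cofactor's oxidised form, stood at 3.80, 3.00 and 3.75 against 4.43, 4.47 and 4.46 FPKM, without overlap (log2 fold change 0.28 ± 0.12 SE, limma p = 0.0590, exact permutation p = 0.1). Of the 8 partners of the synthases, such as Cav1 and the calmodulin genes, 5 were higher and 3 lower, and none passed.

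On the cyclic GMP side, no gene passed p. Of the 4 subunits of soluble guanylate cyclase, the receptor of nitric oxide, 3 were higher and 1 lower. Its most abundant subunit, Gucy1a1, chosen after its values were seen, stood at 44.8, 40.8 and 43.6 FPKM in the controls and at 52.5, 37.2 and 31.9 in the model samples, which spread to both sides of the controls. Among 3 natriuretic peptide receptors 2 were higher and 1 lower, and among 5 genes of the kinase and its substrates 1 was higher and 4 lower. Prkg2, the second cyclic GMP kinase gene, also chosen after its values were seen, stood at 1.60, 2.89 and 1.19 against 2.06, 2.89 and 1.10 FPKM. Of the 8 genes of cyclic GMP breakdown and export, 5 were higher and 3 lower. Pde3a, a phosphodiesterase that cyclic GMP inhibits, stood at 102, 88.7 and 93.4 against 85.2, 86.1 and 76.9 FPKM, each model sample below each control (log2 fold change -0.19 ± 0.09 SE, limma p = 0.0680, exact permutation p = 0.1). With own-strand rows only its log2 fold change was -0.063 (limma p of 0.456), and with TPM -0.11. Abcc5, an exporter of cyclic nucleotides, stood at 8.20, 8.11 and 9.54 against 8.01, 7.44 and 5.99 FPKM, also without overlap (limma p = 0.105, exact permutation p = 0.1). With Ensembl transcripts alone, Abcc5, Pde3a and Arhgef12 had the opposite sign (log2 fold changes of 0.73, 0.20 and 0.24). The lists of ligands and peptidases (1 higher, 2 lower) and of nitric oxide removal (1 higher) held the remaining genes.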

How the data were processed

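Total RNA of 6 rat lungs (3 control, 3 PF model) was depleted of ribosomal RNA and sequenced. The submitters' processing notes name HISAT2, StringTie and TopHat without versions. The authors assembled transcripts and deposited FPKM for each transcript, together with its per-base coverage, a signal not scaled to library size, and raw counts of back-splice reads for circRNAs. A second circRNA measure of theirs, scaled back-splice signal, was not used. The genome build is not given in the sources used here. The age, dose and day come from the study's methods.

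The members and lists were chosen with earlier results of these data known. All rows named for a member were taken, and FPKM was summed per gene name. Features detected in 3 or more of the 6 samples entered a limma fit (3.58.1, trended, in R 4.3.3) of log2(FPKM + 1), with Benjamini-Hochberg adjustment over all 19645 gene names or 64867 transcripts. Fold changes are on that scale, and understate those of low genes. Features were called at an unadjusted p up to 0.05 if mean FPKM also differed by 1 or more on the log2 scale. Ratios were compared with exact two-sided permutation tests. CircRNA counts with at least 10 reads were compared with edgeR 4.0.16 (quasi-likelihood, TMM), with DESeq2 1.42.0 as an alternative. Reads were estimated as coverage times transcript length over the read length of 150, which gave 35778631 to 41112682 a library. On simulated data with 200 of 19645 gene names changed by 2 log2 units, the share recovered by limma after adjustment was 91.5%, beside 6 false calls. The changed names were drawn from those of higher level, and the change was larger than that of any member. The share therefore does not give the power for changes as small as those of the members, or for Nos1, Nos2 and Arg2.

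The text names all members, their top Ensembl and assembled transcripts, transcripts past an unadjusted p of 0.05, pathway genes past it or among the 3 smallest p in each direction, and circRNAs with at least 3 reads. Pathway genes with values outside this rule are marked, and marker genes were picked as examples after their values were seen. Lung markers were checked in all samples: Sftpc and Scgb1a1 were high in each. Other pseudocounts, filters, sums, scalings and tests were tried, as were a block for the replicate number and the omission of single samples, and sums of own-strand rows were added after the rows had been seen. Python 3.11.15 and matplotlib 3.10.9 were used for tables and figures.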

Additional observations from a re-analysis of the deposited data

How the results depend on the processing

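Of the 9 members, 1 passed an unadjusted p of 0.05. With Ensembl transcripts only, with TPM and without the trend in limma 0 passed, and without 1 sample 0 to 1 passed. Of the pathway list 2 passed, against 6 with voom on estimated reads and 0 to 3 without 1 sample. With Ensembl transcripts only 2 passed as well, but Abcc5 in place of Prmt1. Of the member transcripts 2 passed, against 1 with a mean FPKM of at least 1, 1 with TPM and 1 to 5 without 1 sample, where the 5 came without model 1. Ednra was lower in the model under every alternative run, with a log2 fold change between -0.75 and -0.31 without 1 sample, and adjusted p between 0.820 and 0.9999 over all alternatives. With Ensembl transcripts only, the sign turned for Ednrb (0.44), Abcc5 (0.73, limma adjusted p = 0.802, the smallest over its alternatives and past the unadjusted threshold), Arhgef12 (0.24) and Pde3a (0.20), where fewer rows are summed.

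Without 1 sample, log2 fold changes turned sign for Edn1 (-0.14 to 0.28), Ece1 (-0.017 to 0.21), Ednrb (-0.25 to 0.083), Nos1 (-0.016 to 0.0089) and Arg2 (-0.18 to 0.045). They did so for the transcripts ENSRNOT00000019361 (-0.026 to 0.70), ENSRNOT00000019638 (-0.14 to 0.34), ENSRNOT00000066810 of Nos1 (-0.016 to 0.0089), ENSRNOT00000077742 (-0.24 to 0.42), ENSRNOT00000083433 (-0.18 to 0.045), MSTRG.13430.2 (-0.17 to 0.15), MSTRG.15078.3 (-0.44 to 0.13) and MSTRG.20745.1 (-0.089 to 0.41), and for circRNA981 (-0.43 to 0.36). None of these had passed the test. Nos2 ran from -0.34 to -0.13 without turning sign. The difference in log2 ratio of Ednra to Ednrb ran from -0.59 to -0.22, that of Arg2 to Nos3 from -0.83 to -0.04, and that of the Nos3 share from 5.66 to 12.8 percentage points. For genes below a mean FPKM of 1 that filter gave no value. Where no cause is named, the cause was not tested.

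Same-numbered samples did not deviate together (r of 0.0643, 0.0266 and -0.0902), and control 1 correlated best with model 3 (0.0723), so the numbers were not taken as pairs. With a replicate block 2 members passed, Ednra and Nos2 (limma adjusted p = 0.924 for both), and 0 genes of the pathway list.

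Depth limits Nos1, Nos2 and Arg2, which rest on few reads, and 3 rats a group allow no permutation p below 0.1.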
